A study of Mus musculus with 12 samples.

Results

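The genes described here are 9 markers of the B lineage, Cd79a, Cd79b, Ms4a1, Pax5, Blk, Cd22, Cr2, Fcer2a and Jchain, measured by RNA sequencing in 12 primary mammary tumours of mice. They were taken from a list of names, chosen with earlier results of these data known. All 9 were in the table of 56860 genes, and all 9 were among the 30660 genes tested. The tumours came from 3 strains that carried MMTV-PyMT, a transgene that drives an oncogene of polyomavirus in the mammary gland. Per the design text, each strain also carried MMTV-Cre. S1pr1_KO tumours (MMTV-Cre;S1pr1fl/fl; MMTV-PyMT) were to lose the sphingosine-1-phosphate receptor S1pr1, and C3_KO tumours (MMTV-Cre;C3Tdt:MMTV-PyMT) were to lose complement component C3. WT tumours carried MMTV-Cre and MMTV-PyMT per the design text, while their strain label names MMTV-PyMT only. Each genotype had 4 tumours taken at an age of 4.5 months. MMTV-Cre acts mainly in mammary epithelium, so lymphocytes in a tumour may still carry an intact allele, although such lines are also known to recombine in salivary gland and in some blood cells. Separate mice are not stated as the source of tumours within a strain, and p-values therefore measure only the spread between these samples, which may be technical.

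B cells recognise antigen through a surface immunoglobulin that signals through the paired chains CD79A and CD79B. The transcription factor PAX5 holds cells in the B lineage, and resting follicular B cells also carry CD20, CD22, the complement receptor CR2 and the low-affinity IgE receptor CD23. When a B cell becomes an antibody-secreting plasma cell, PAX5 and many of these surface genes are shut off, and the joining chain of polymeric IgM and IgA, encoded by Jchain, is made in large amounts. S1PR1 is known to guide lymphocytes out of lymphoid organs, and CR2 binds fragments of C3.

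Library totals were 230431880 to 380336448 counts in S1pr1_KO, 237064382 to 424584813 counts in C3_KO and 327122244 to 484002378 counts in WT libraries. The ranges of the targeted genes overlapped between knockout and WT whole tumours. S1pr1 lay at 2.59 to 7.43 CPM in S1pr1_KO against 2.88 to 8.02 CPM in WT libraries, and C3 at 41.6 to 75.1 CPM in C3_KO against 43.3 to 182 CPM in WT libraries. CPM are counts brought to a common library size, with edgeR scaling. A few libraries stood apart in genes of other tissues. The summed level of 11 salivary gland genes reached 161900 CPM in S1pr1_KO replicate 1, and 11360 CPM was found in S1pr1_KO replicate 4, against at most 405 CPM in WT libraries. The summed level of 8 milk protein genes was 95518 CPM in C3_KO replicate 3, against at most 4361 CPM in WT libraries.

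Across all genes tested, 18.7 to 31.0% lay above every WT library in a given S1pr1_KO library and 19.8 to 27.0% in a given C3_KO library, which is the background for the counts of this kind given here. The 9 genes were high in single tumours and not throughout a genotype. S1pr1_KO replicates 1 and 2 held the highest levels, and C3_KO replicate 1 came after them. In S1pr1_KO replicate 1, all 9 genes lay above every WT library, and in S1pr1_KO replicate 2, 8 of the 9 did. For the 8 genes other than Jchain, the level was 16.7 to 59.7 times the highest WT library in S1pr1_KO replicate 1 and 10.8 to 35.8 times in S1pr1_KO replicate 2. C3_KO replicate 1 lay above every WT library for the same 8 genes, at 1.38 to 7.67 times the highest WT library. The other S1pr1_KO libraries did not share this: 1 of the 9 genes was above every WT library in S1pr1_KO replicate 3 and 2 were in S1pr1_KO replicate 4. S1pr1_KO replicate 1 ranked first of the 12 libraries for all 9 genes, S1pr1_KO replicate 2 was the second for 8 and C3_KO replicate 1 the third for 8. In whole tumours, fewer cells of a type and less RNA per cell cannot be told apart.

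**Figure D1:**
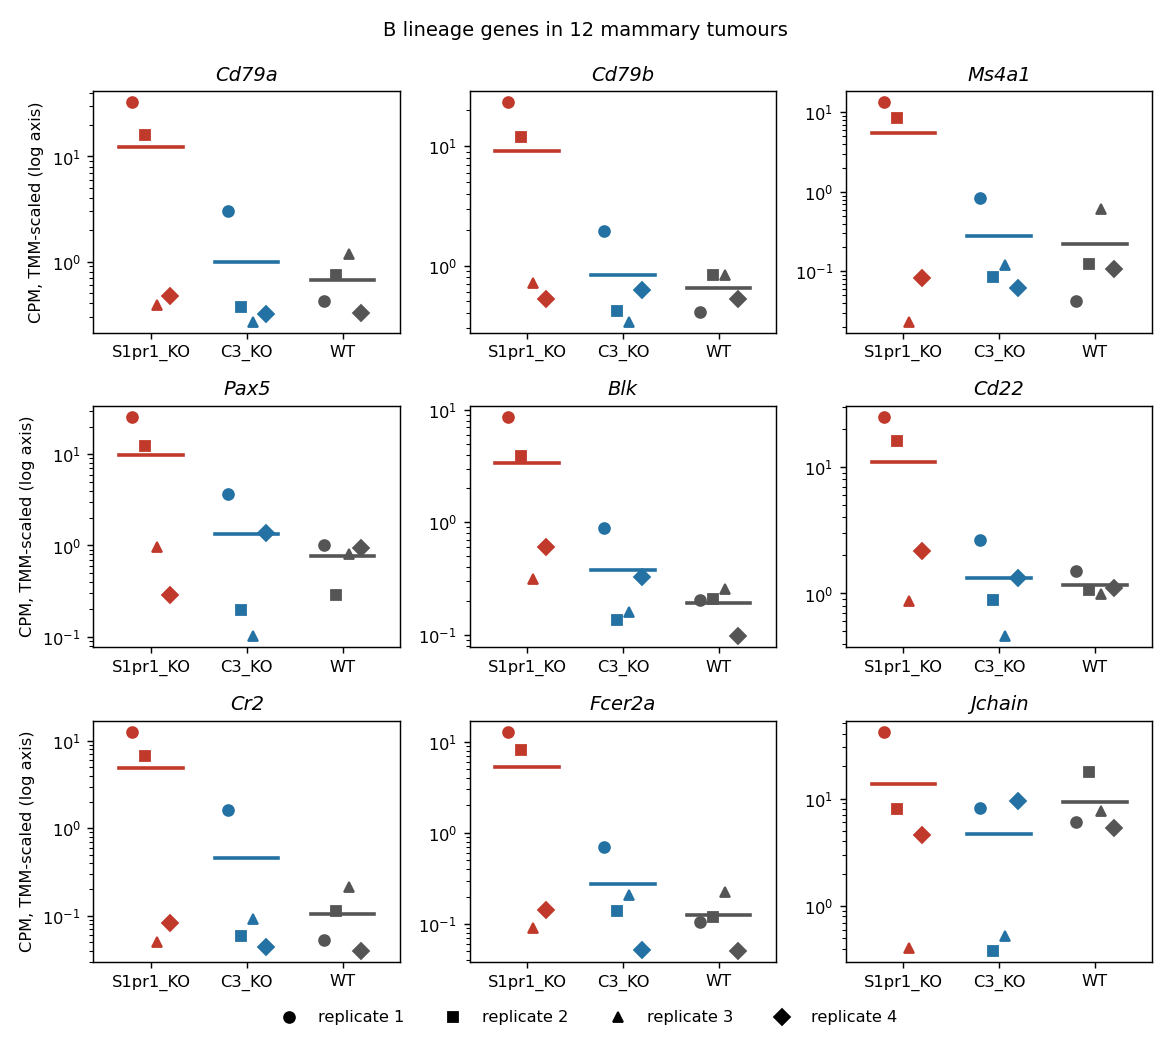
Level of each of the 9 genes in CPM (log axis) in the 4 S1pr1_KO, 4 C3_KO and 4 WT tumours; each symbol is 1 library, with its shape giving the replicate number, and each line is the mean of a genotype. S1pr1_KO replicates 1 and 2 stand above the WT libraries in all panels but Jchain, in which replicate 2, at 7.96 CPM, lies among them.

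The receptor chains are described first. Cd79a, which encodes the immunoglobulin alpha chain of the B cell receptor, stood at 32.7, 15.9, 0.383 and 0.468 CPM in S1pr1_KO replicates 1 to 4. In C3_KO replicates 1 to 4 it stood at 3.01, 0.369, 0.269 and 0.319 CPM, and in WT replicates 1 to 4 at 0.419, 0.739, 1.18 and 0.326 CPM. S1pr1_KO replicates 3 and 4 thus lay within the WT range, and the groups overlapped. Its partner Cd79b stood at 23.3, 11.9, 0.711 and 0.520 CPM in S1pr1_KO replicates 1 to 4, at 1.94, 0.417, 0.339 and 0.627 CPM in C3_KO replicates 1 to 4, and at 0.405, 0.8291, 0.835 and 0.523 CPM in WT replicates 1 to 4. The libraries took the same order at the top as for Cd79a, and the groups overlapped again.

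The sequence before the start of Cd79a is shown with those of Cr2 and Cd22, which were also highest in S1pr1_KO replicates 1 and 2 and C3_KO replicate 1, and of Jchain, which was higher in WT replicate 2 than in S1pr1_KO replicate 2 or C3_KO replicate 1. RefSeq promoters on build GRCm38.p6 were at hand for 6 of the 9 genes. Each line gives the 250 bases before the annotated start, 5′ to 3′ on the strand of the gene. Capitals mark matches, on either strand, to CAGGTG, the E-box bound by the E protein E2A, or to the palindrome bound by EBF1, searched as TCCC and GGGA with any 2 bases between them; EBF1 works with E2A and PAX5 in early B cells.
Cd79a, chr7:24897247-24897496, plus strand: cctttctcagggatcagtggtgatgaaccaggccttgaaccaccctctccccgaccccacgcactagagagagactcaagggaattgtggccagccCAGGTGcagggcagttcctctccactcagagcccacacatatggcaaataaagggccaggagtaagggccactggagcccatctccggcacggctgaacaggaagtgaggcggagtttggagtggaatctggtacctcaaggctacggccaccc
Cr2, chr1:195176720-195176969, minus strand: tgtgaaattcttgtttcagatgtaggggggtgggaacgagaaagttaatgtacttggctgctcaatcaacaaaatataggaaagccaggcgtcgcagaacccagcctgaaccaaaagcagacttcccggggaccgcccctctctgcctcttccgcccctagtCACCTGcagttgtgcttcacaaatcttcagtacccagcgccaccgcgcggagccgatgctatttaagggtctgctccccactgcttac
Cd22, chr7:30879029-30879278, minus strand: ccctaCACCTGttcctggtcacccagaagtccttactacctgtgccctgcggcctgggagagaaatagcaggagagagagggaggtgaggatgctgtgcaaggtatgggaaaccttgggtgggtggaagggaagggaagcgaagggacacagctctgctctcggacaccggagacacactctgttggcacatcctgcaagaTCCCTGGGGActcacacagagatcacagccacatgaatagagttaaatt
Jchain, chr5:88527898-88528147, minus strand: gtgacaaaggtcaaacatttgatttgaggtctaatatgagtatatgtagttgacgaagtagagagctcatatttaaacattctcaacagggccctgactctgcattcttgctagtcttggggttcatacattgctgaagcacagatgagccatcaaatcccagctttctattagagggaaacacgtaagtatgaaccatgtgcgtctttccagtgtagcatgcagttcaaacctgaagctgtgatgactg
CAGGTG was found in 4 of the 6 genes, Cd79a, Cr2, Cd22 and 1 of the 3 annotated starts of Fcer2a. It was found in 17.2% of all 32851 promoters of that length, a share of promoters and not of genes. Pax5 was also highest in S1pr1_KO replicates 1 and 2 and C3_KO replicate 1. It had no match to any sequence searched and is not shown. In Cd79a the match began 154 bases before the start, and in Cr2 the reverse complement CACCTG began 88 bases before it. The EBF1 palindrome was found in Cd22 only, 49 bases before the start, and in 0.779% of all promoters. The octamer ATTTGCAT, bound by POU factors and present in 1.60% of promoters, and the ETS-type site GAGGAAGT, present in 2.44%, were found in none of the 6 genes. A match is a run of letters and was not tested as a binding site.

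Among the other surface genes, Ms4a1, which encodes CD20, had the widest range. It stood at 13.4, 8.54, 0.0234 and 0.0817 CPM in S1pr1_KO replicates 1 to 4, at 0.835, 0.0845, 0.120 and 0.0617 CPM in C3_KO replicates 1 to 4, and at 0.0423, 0.123, 0.605 and 0.106 CPM in WT replicates 1 to 4. The lowest of these values, in S1pr1_KO replicate 3, rested on 8 counts. Cd22, an inhibitory sialic acid-binding receptor of B cells, stood at 25.0, 16.2, 0.872 and 2.17 CPM in S1pr1_KO replicates 1 to 4, at 2.64, 0.890, 0.459 and 1.33 CPM in C3_KO replicates 1 to 4, and at 1.497, 1.07, 0.986 and 1.11 CPM in WT replicates 1 to 4. S1pr1_KO replicate 3 lay below all WT libraries and the other 3 S1pr1_KO libraries above them. Gm29439, an annotated antisense transcript over Cd22, reached 3.13 CPM in S1pr1_KO replicate 1 and 2.43 CPM in S1pr1_KO replicate 2, against at most 0.148 CPM in WT libraries. The use of strand in the counting is not given in the sources used here, so reads of this pair cannot be told apart.

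Pax5, the lineage-holding transcription factor, stood at 25.6, 12.4, 0.954 and 0.290 CPM in S1pr1_KO replicates 1 to 4, at 3.68, 0.194, 0.101 and 1.38 CPM in C3_KO replicates 1 to 4, and at 1.01, 0.290, 0.817 and 0.950 CPM in WT replicates 1 to 4. Outside the 3 libraries at the top, Pax5 did not keep step with the receptor chains: it was 1.38 CPM in C3_KO replicate 4, where Cd79a was 0.319 CPM. Blk, a Src family kinase of B cells, stood at 8.62, 3.91, 0.316 and 0.602 CPM in S1pr1_KO replicates 1 to 4, at 0.882, 0.135, 0.158 and 0.326 CPM in C3_KO replicates 1 to 4, and at 0.204, 0.206, 0.254 and 0.0974 CPM in WT replicates 1 to 4. Blk was the 1 gene of the 9 with every S1pr1_KO library above every WT library, and among all genes tested 2.78% showed this. S1pr1_KO replicate 3 exceeded the highest WT library by a narrow margin, at 1.25 times its level.

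Cr2 and Fcer2a gave the largest fold differences of the 9 genes between S1pr1_KO and WT. Cr2, the receptor for C3 fragments, which follicular dendritic cells also express, stood at 12.8, 6.68, 0.0497 and 0.0817 CPM in S1pr1_KO replicates 1 to 4, at 1.64, 0.0592, 0.0919 and 0.0446 CPM in C3_KO replicates 1 to 4, and at 0.0528, 0.112, 0.214 and 0.0399 CPM in WT replicates 1 to 4. Fcer2a, which encodes CD23, stood at 12.9, 8.14, 0.0907 and 0.141 CPM in S1pr1_KO replicates 1 to 4, at 0.705, 0.138, 0.206 and 0.0514 CPM in C3_KO replicates 1 to 4, and at 0.106, 0.118, 0.227 and 0.0509 CPM in WT replicates 1 to 4. For both genes S1pr1_KO replicates 3 and 4 were inside the WT range. The gap between the top of S1pr1_KO and the top of WT was 59.7-fold for Cr2 and 56.8-fold for Fcer2a, the 2 widest of the 9 genes.

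Jchain, the marker of antibody secretion, did not share the order of the libraries at the top. It stood at 41.9, 7.96, 0.404 and 4.56 CPM in S1pr1_KO replicates 1 to 4, at 8.23, 0.383, 0.523 and 9.55 CPM in C3_KO replicates 1 to 4, and at 6.09, 17.6, 7.70 and 5.37 CPM in WT replicates 1 to 4. All 4 WT libraries were above 5 CPM, while S1pr1_KO replicate 3 and C3_KO replicates 2 and 3 were below 1 CPM, and S1pr1_KO replicate 2, with a high level of the other 8 genes, lay within the WT range. The highest WT level of Jchain was in WT replicate 2.

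Compared per length, in the authors' deposited FPKM, the highest level of the 9 genes belonged to Cd79a, Cd79b or Jchain in every tumour. Jchain had the highest FPKM of the 9 genes in each WT library, at 2.02 to 7.07 FPKM. In S1pr1_KO replicates 1 and 2 the first place was held by Cd79a, at 19.8 and 14.3 FPKM, while Jchain stood at 14.7 and 4.12 FPKM there. Cr2 was the lowest or next to lowest of the 9 genes in every library, at 1.39 and 1.07 FPKM in S1pr1_KO replicates 1 and 2 and at 0.00465 to 0.0240 FPKM in WT libraries.

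In S1pr1_KO against WT tumours, the question was whether loss of S1pr1 came with another level of B lineage transcripts. The S1pr1 transcript itself stood at 5.76, 7.43, 2.59 and 2.80 CPM in S1pr1_KO replicates 1 to 4, against 6.87, 8.02, 2.88 and 3.05 CPM in WT replicates 1 to 4. S1pr1_KO replicates 1 and 2, with the high B lineage genes, were thus within the WT range of S1pr1. S1pr1_KO replicates 3 and 4 were below the lowest WT library, at 2.88 CPM, replicate 4 by a narrow margin. Of the 9 B lineage genes, 1 lay above, 3 below and 5 within the WT range in S1pr1_KO replicate 3. In S1pr1_KO replicate 4, 2 lay above, 2 below and 5 within it. Mean levels of 8 of the 9 genes were 9.50 to 46.5-fold higher in S1pr1_KO than in WT, but edgeR called no gene at an adjusted p under 0.05. These folds are those fitted by edgeR. The edgeR quasi-likelihood test, adjusted over all 30660 genes, called 0 of the 9 genes and 0% of all genes. At an unadjusted p under 0.05, 8 of the 9 genes were higher, where 7.69% of all genes, 2359 of them, were higher and 2384 lower, and the median log2 fold change of the 9 genes was 4.14, beside 0.026 over all genes tested. The count of 8 is not a test. The 9 genes were chosen with earlier results of these data known and vary together over the libraries. Cr2 averaged 4.90 ± 6.11 CPM in S1pr1_KO and 0.105 ± 0.0794 CPM in WT (SD, n = 4 each), with a log2 fold change of 5.54 (SE 1.80, edgeR adjusted p = 0.241). Fcer2a averaged 5.32 ± 6.32 CPM in S1pr1_KO and 0.126 ± 0.0738 CPM in WT (SD, n = 4 each), with a log2 fold change of 5.40 (SE 1.46, edgeR adjusted p = 0.215). In both, the SD within S1pr1_KO exceeded the mean. Blk had the smallest p of the 9 genes, at 3.36 ± 3.87 CPM in S1pr1_KO and 0.190 ± 0.0661 CPM in WT (SD, n = 4 each), with a log2 fold change of 4.14 (SE 0.99, edgeR adjusted p = 0.189). The log2 fold changes of Ms4a1, Cd79a, Cd79b, Pax5 and Cd22 were 4.65, 4.22, 3.81, 3.68 and 3.25, with edgeR adjusted p-values of 0.213 to 0.255. Jchain differed by less than the spread between tumours, at 13.7 ± 19.1 CPM in S1pr1_KO and 9.18 ± 5.68 CPM in WT (SD, n = 4 each), with a log2 fold change of 0.58 (SE 1.18, edgeR adjusted p = 0.837).

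The count of calls depended on the test and on S1pr1_KO replicate 3. DESeq2 called 7 of the 9 genes, all but Pax5 and Jchain, where it called 3.11% of all genes. With limma-voom and quality weights per library, 2 of the 9, Blk and Cd22, were called, where 25.5% of all genes were. Without S1pr1_KO replicate 3, edgeR called Cd79b, Blk, Cd22 and Fcer2a, each with an adjusted p of 0.0454, where it called 4.25% of all genes. Without S1pr1_KO replicate 1, the log2 fold change of Jchain was -1.03, and without the 3 libraries that stood apart in milk or saliva genes, replicate 1 among them, it was -1.08.

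**Figure D2:**
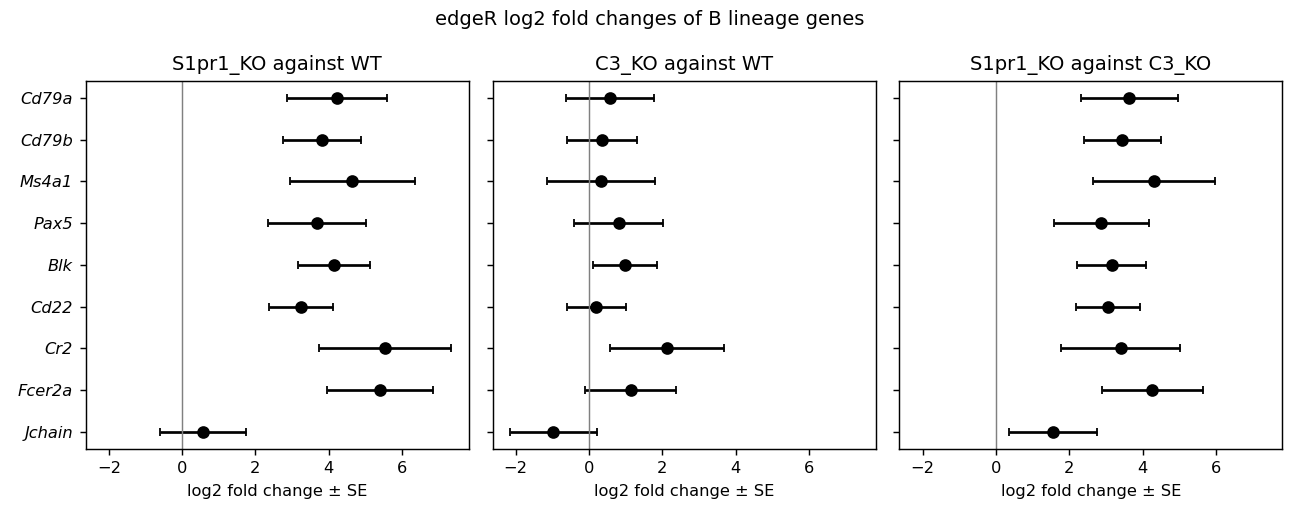
Log2 fold change from edgeR with its standard error for the 9 genes in S1pr1_KO against WT, C3_KO against WT and S1pr1_KO against C3_KO; points are estimates from all 12 libraries, bars are 1 SE to each side and the line marks no difference. In S1pr1_KO against WT 8 genes lie between 3.25 and 5.54, in C3_KO against WT the 9 genes lie between -0.98 and 2.13.

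In C3_KO against WT tumours, 0 of the 9 genes were called by edgeR, where 0% of all genes were, and 0 reached an unadjusted p under 0.05 as higher, where 3.62% of all genes, 1109 of them, did. DESeq2 called 0 of the 9 and 0.267% of all genes. Log2 fold changes were 0.19 to 2.13 for 8 genes and -0.98 for Jchain, with standard errors of 0.80 to 1.56. Cr2 had the largest, at 0.459 ± 0.789 CPM in C3_KO and 0.105 ± 0.0794 CPM in WT (SD, n = 4 each), a log2 fold change of 2.13 (edgeR adjusted p = 0.766). This rested on 1 library, since without C3_KO replicate 1 it was -0.69. Without the same library Cd79a turned to -1.06, Ms4a1 to -1.30, Cd79b to -0.49, Pax5 to -0.46 and Cd22 to -0.38, while Blk at 0.11 and Fcer2a at 0.069 kept their sign. No gene of the 9 had C3_KO libraries all above the WT libraries, where 1.32% of all genes did. Jchain averaged 4.67 ± 4.90 CPM in C3_KO and 9.18 ± 5.68 CPM in WT (SD, n = 4 each), with an edgeR adjusted p of 0.848.

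Between the knockout strains, S1pr1_KO against C3_KO, edgeR called 0 of the 9 genes and 0% of all genes. At an unadjusted p under 0.05, 7 of the 9 genes were higher in S1pr1_KO, where 1.77% of all genes, 543 of them, were. Like the count in S1pr1_KO against WT, this count is not a test. Ms4a1 and Fcer2a had the largest log2 fold changes, 4.31 (SE 1.67) and 4.27 (SE 1.38), with no call (edgeR adjusted p = 1.00 for both). Cr2 at 3.41 and Jchain at 1.55 were the 2 genes that did not reach an unadjusted p under 0.05. DESeq2 called 3 of the 9, Cd79b, Blk and Cd22, where it called 0.372% of all genes. No gene of the 9 had all S1pr1_KO libraries above all C3_KO libraries, where 0.476% of all genes did. The comparisons share libraries, S1pr1_KO, C3_KO or WT, and are not independent of each other.

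A ratio of 2 members within a library changes little with the share of B lineage RNA, if both come only from B lineage cells. Such ratios were compared next. The 3 counts added to each gene, or RNA from other cells, can still shift them where counts are low. The ratio of Jchain to Cd79a, secretion against receptor, was 1.28, 0.500, 1.05 and 9.54 in S1pr1_KO replicates 1 to 4. In C3_KO replicates 1 to 4 it was 2.73, 1.04, 1.91 and 29.1, and in WT replicates 1 to 4 it was 14.2, 23.6, 6.51 and 16.2. Thus 3 of the 4 S1pr1_KO libraries and 3 of the 4 C3_KO libraries lay below every WT library. The mean log2 ratio was 0.67 ± 1.82 in S1pr1_KO and 3.78 ± 0.78 in WT (SD, n = 4 each), a difference of -3.10 (exact permutation p = 0.0571, 0.343 after Benjamini-Hochberg adjustment over 12 tests, two-sided). In C3_KO it was 1.82 ± 2.10, a difference of -1.95 from WT (n = 4 each, exact permutation p = 0.143, 0.343 after adjustment). With 4 against 4 tumours the smallest p is 0.0286, and none of the 12 tests reached it. The ratio came from different parts in different tumours: in S1pr1_KO replicates 1 and 2 Cd79a was high, while in S1pr1_KO replicate 3 and C3_KO replicates 2 and 3 Jchain was below 1 CPM.

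The follicular markers were also set against Cd79a. Cr2 to Cd79a was 0.391, 0.420, 0.149 and 0.194 in S1pr1_KO replicates 1 to 4, 0.547, 0.179, 0.364 and 0.167 in C3_KO replicates 1 to 4, and 0.148, 0.159, 0.188 and 0.140 in WT replicates 1 to 4. Fcer2a to Cd79a was 0.254 to 0.511 in S1pr1_KO, 0.188 to 0.773 in C3_KO and 0.167 to 0.270 in WT libraries. The difference in mean log2 ratio of Fcer2a to Cd79a was 0.85 in S1pr1_KO against WT (n = 4 each, exact permutation p = 0.0571, 0.343 after adjustment over the 12 tests). For Cr2 to Cd79a it was 0.74 in S1pr1_KO against WT (n = 4 each, exact permutation p = 0.114) and 0.82 in C3_KO against WT (n = 4 each, exact permutation p = 0.0857), both 0.343 after adjustment. Cd79b to Cd79a ran from 0.713 to 1.84 in S1pr1_KO, 0.644 to 1.94 in C3_KO and 0.712 to 1.59 in WT libraries. Its mean log2 ratio differed by -0.05 in S1pr1_KO against WT (n = 4 each, exact permutation p = 0.943).

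**Figure D3:**
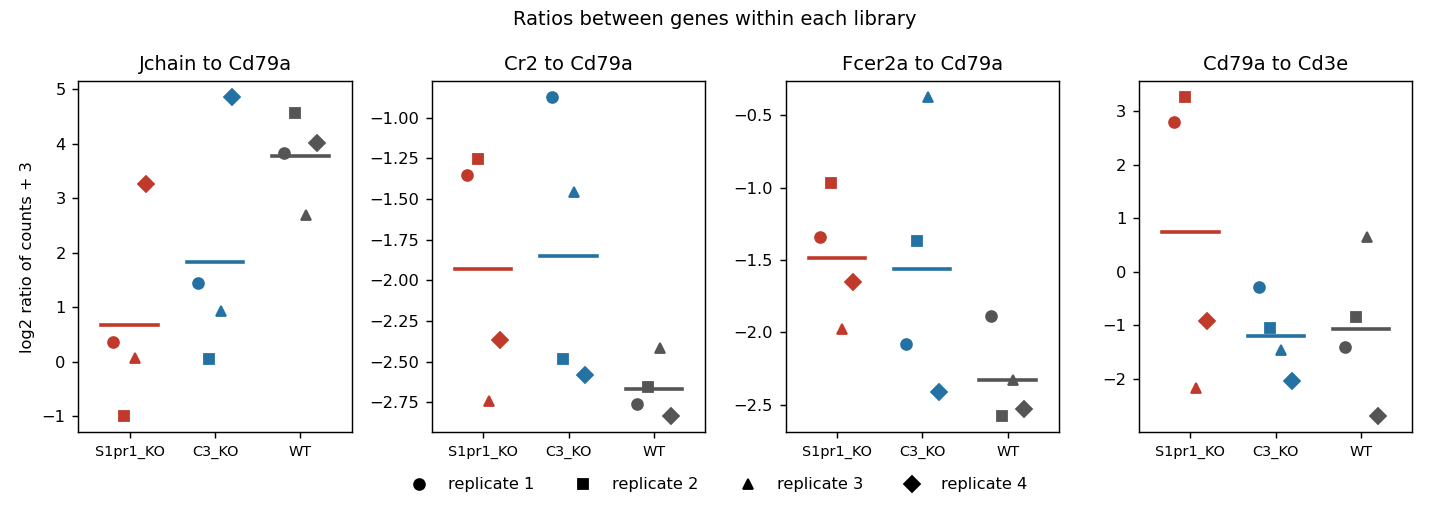
Log2 ratios between genes within each library, with 3 counts added to each gene, in S1pr1_KO, C3_KO and WT tumours; symbols are libraries, shapes give the replicate number and lines are genotype means. The ratio of Jchain to Cd79a is lowest in S1pr1_KO replicate 2, and S1pr1_KO replicates 1 and 2 stand above the others in the ratio of Cd79a to the T cell gene Cd3e.

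Other genes of the B cell pathway were read from lists, of which none had a gene called by edgeR in S1pr1_KO against WT. Of 22 genes of B cell receptor signalling, 18 had a log2 fold change above 0 and the median was 0.64, beside 0.026 over all genes tested. Of all genes tested 51.7% lay above 0 in S1pr1_KO against WT, which is the background for such counts in the lists below. The kinase Syk, which binds the phosphorylated CD79 chains, was at 20.8 ± 10.9 CPM in S1pr1_KO and 7.62 ± 1.95 CPM in WT (SD, n = 4 each, log2 fold change 1.45, edgeR adjusted p = 0.197). The inhibitory lectin Siglecg was at log2 3.96 and the Fc receptor-like gene Fcrla at 4.18. Several genes of this list, such as Syk, are used by other blood cells or by epithelium, while Siglecg and Fcrla are largely of B cells. Of 14 transcription factors of the lineage, 12 were above 0 with a median of 0.42. Irf4, which serves activated B cells and plasma cells, was at log2 2.88, Spib, an ETS factor of B cells and plasmacytoid dendritic cells, at 3.39, and Ikzf3, a zinc finger factor of lymphocytes, at 2.23, with edgeR adjusted p-values of 0.216 to 0.241.

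Genes of antibody secretion are given next. Of 9 plasma cell genes, 5 were above 0 and 4 below in S1pr1_KO against WT, and the median log2 fold change was 0.024. Mzb1, a chaperone of immunoglobulin assembly, was at log2 1.29, Derl3 of the secretory pathway at 1.03 and Prdm1, the factor that turns on the plasma cell programme, at 0.58 (edgeR adjusted p = 0.394, 0.297 and 0.374). Derl3 was at 4.10, 0.96, 1.76 and 1.34 times the WT mean in S1pr1_KO replicates 1 to 4, highest in the library richest in salivary genes. Of 8 germinal centre genes tested out of 9, 7 were above 0 with a median of 0.35, and Il21r, the receptor for interleukin 21, was at log2 1.20, Gcsam at 1.05 and Mef2b at -0.69. Of 15 genes of B cell survival and homing, 14 were above 0 with a median of 1.29. Their mean log2(CPM + 0.05) lay 2.17, 1.26, -0.38 and -0.08 from the WT mean in S1pr1_KO replicates 1 to 4. The homing receptor gene Ccr7 was at log2 1.96 and Tnfrsf13b, a receptor for B cell survival ligands, at 1.24 (edgeR adjusted p = 0.255 and 0.287). Among 11 immunoglobulin constant genes all were above 0 with a median of 1.92. They summed to 824, 205, 26.4 and 92.8 CPM in S1pr1_KO replicates 1 to 4, against 86.8 to 264 CPM in WT libraries. The sum was thus above the WT range in S1pr1_KO replicate 1 only and below it in S1pr1_KO replicate 3. Ighd, the IgD heavy chain of mature resting B cells, was at 43.6, 25.5, 0.354 and 0.271 CPM in S1pr1_KO replicates 1 to 4 against 0.173 to 0.513 CPM in WT libraries (log2 fold change 5.82, edgeR adjusted p = 0.222). In C3_KO against WT, the medians of these lists lay between -0.65 for immunoglobulin constant genes and 0.20 for survival and homing, beside 0.053 over all genes, and edgeR called no gene of them.

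Markers of other cell types were high in some of the same tumours, and some also in others. The 13 adipocyte genes summed to 1383 and 1149 CPM in S1pr1_KO replicates 1 and 2 and to 275 and 217 CPM in S1pr1_KO replicates 3 and 4, against 196 to 408 CPM in WT libraries. In C3_KO they summed to 468 CPM in replicate 1 and to 501 CPM in replicate 2, a library in which none of the 9 B lineage genes was above the WT libraries. In S1pr1_KO over WT all 13 had fold changes above 0, with a median of 2.63 on the log2 scale. Of 13 genes of lymph node stroma, follicular dendritic cells and sinuses, 11 were above every WT library in S1pr1_KO replicate 1, 9 in S1pr1_KO replicate 2 and 7 in C3_KO replicate 1, against 3 and 2 in S1pr1_KO replicates 3 and 4, beside 28.7, 31.0, 23.9, 18.7 and 26.7% of all genes tested in these 5 libraries. Marco, a receptor of sinus and marginal zone macrophages, was at 9.00, 2.66, 0 and 0.0223 CPM in S1pr1_KO replicates 1 to 4, against 0 to 0.0458 CPM in WT libraries. Siglec1, of the same kinds of macrophage, was not confined to the libraries with high B lineage genes, at 10.1, 12.2, 3.96 and 9.22 CPM in S1pr1_KO replicates 1 to 4 and 4.75, 4.51, 1.93 and 6.92 CPM in C3_KO replicates 1 to 4, against 1.20 to 3.89 CPM in WT libraries. Fcamr was highest in C3_KO replicate 3, where the B lineage genes were low, at 0.871 CPM, beside 0.111 to 0.810 CPM in S1pr1_KO and 0.0531 to 0.137 CPM in WT libraries. In S1pr1_KO against WT, log2 fold changes were 2.10 for Siglec1, 2.27 for Fcamr and 6.80 for Marco (edgeR adjusted p = 0.189, 0.241 and 0.239). The summed level of this list was 33.3 to 158 CPM in S1pr1_KO, 32.5 to 7943 CPM in C3_KO and 30.4 to 72.3 CPM in WT libraries, the highest through the milk gene Glycam1 in C3_KO replicate 3. The part of these cells in the levels of the B lineage genes was not tested.

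The T cell list had a smaller median difference. The 16 T cell genes summed to 116, 57.0, 88.1 and 58.3 CPM in S1pr1_KO replicates 1 to 4 and to 29.9 to 76.3 CPM in C3_KO, against 50.4 to 63.6 CPM in WT libraries. S1pr1_KO replicate 2, with the second highest level of 8 B lineage genes, was within the WT range in the sum. There 10 of the 16 genes were above every WT library, while Tcf7 and Bcl11b lay below every one, at 10.8 and 4.02 CPM. In S1pr1_KO replicate 3, Tcf7 alone gave 38.6 CPM of the sum, and 4 of the 16 genes were above every WT library. The sums thus rest largely on a few genes. Fold changes over WT were above 0 for 15 of 16, the median being 0.90 on the log2 scale, and Cd247 and Cd5, both of T cell receptor signalling, were at 1.06 and 1.36 (edgeR adjusted p = 0.228 and 0.283). Dendritic cell genes were above 0 in 10 of 11 with a median of 0.93, and macrophage genes in 7 of 11 with a median of 0.32. Luminal epithelial genes summed to 2476 to 5258 CPM in S1pr1_KO against 3161 to 6748 CPM in WT libraries, with 2 of 8 above 0. Salivary gland genes were high in S1pr1_KO replicates 1 and 4 and at 333 CPM in S1pr1_KO replicate 2, against 67.7 to 405 CPM in WT libraries. Their log2 fold changes were above 0 for 10 of 11, with a median of 5.73, beside 4.14 for the 9 B lineage genes. Leaving out the 3 libraries that stood apart in milk or saliva genes keeps S1pr1_KO replicates 2 and 3. The log2 fold change against WT was then 3.67 for Cd79a, 5.05 for Cr2 and 5.08 for Fcer2a, and edgeR called 0 genes. These folds rest on S1pr1_KO replicate 2, since Cd79a was at 0.383 CPM in S1pr1_KO replicate 3. Library totals were 248744432, 284051346, 380336448 and 230431880 counts in S1pr1_KO replicates 1 to 4. The part of salivary tissue or of library size in the B lineage levels was not tested.

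**Figure D4:**
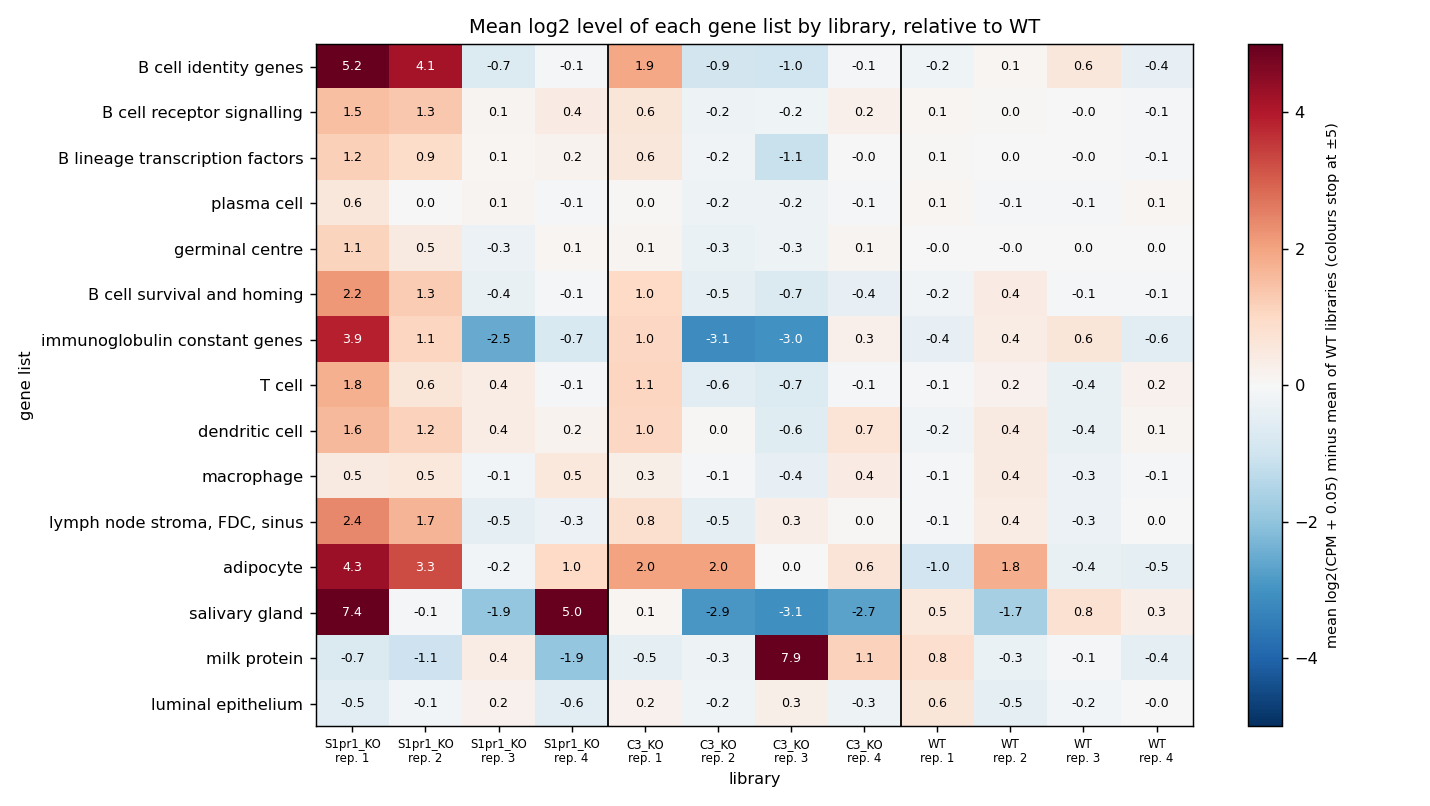
Mean log2(CPM + 0.05) of each of 15 gene lists in each library (rows: lists, columns: 4 S1pr1_KO, 4 C3_KO and 4 WT libraries) minus the mean of the WT libraries; numbers give the value in each cell, red is above and blue below WT. S1pr1_KO replicates 1 and 2 show the highest values of the B cell identity genes, followed by C3_KO replicate 1, and the T cell list is nearer to WT in all 3.

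Genes outside the 9 with the most similar pattern were ranked by Pearson's r of log2 CPM with the mean standardised level of the 9 genes over the 12 libraries, among 14299 genes. Among the 10 nearest were Spib, H2-Ob, Bank1, Cd37, Siglecg, Treml2, Hvcn1, Tbc1d10c and Il27ra, with r of 0.99 to 0.95. Spib reached 11.5 and 7.22 CPM in S1pr1_KO replicates 1 and 2 against at most 0.592 CPM in WT libraries. H2-Ob, an MHC class II subunit of B cells, reached 22.6 and 14.2 CPM there and 2.20 CPM in C3_KO replicate 1, against at most 1.18 CPM in WT libraries. The measure rests largely on the 3 libraries with the highest levels of 8 of the 9 genes. In the other 9 libraries r was 0.87 for Spib, 0.80 for H2-Ob and 0.69 for Bank1, and 0.14 to 0.64 for the others named. Among the 9 genes themselves, r in those 9 libraries with the mean of the other members was 0.76 for Cd79a, 0.65 for Cd79b and 0.61 for Jchain, 0.23 to 0.46 for Cd22, Cr2, Ms4a1, Blk and Pax5, and -0.057 for Fcer2a.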

How the data were processed

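RNA from 12 primary mammary tumours kept in RNAlater was sequenced from Illumina libraries, per the labels' protocols. The authors deposited a table of raw counts per gene and a table of FPKM per gene, for 56860 genes and 12 samples. Per the submitters' processing notes, StringTie and GRCm39 (mm39) were used, in roles not stated. For the aligner, the counting program and strand handling, no name or setting is stated. The share of even numbers among counts of 1 to 50 was 60.2 to 64.4%, and whether both mates of a pair were counted is not stated. Halved counts were therefore one alternative. Library totals were 230431880 to 484002378 counts, and the lowest member count was 8.

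Groups came from the genotype label, and replicates were numbered in accession order. The members and lists were chosen with earlier results of these data known. Counts were tested with edgeR 4.0.16 in R 4.3.3 (its default filter on low counts, TMM scaling, robust quasi-likelihood F-test on all 12 libraries with a mean per genotype, 9 residual degrees of freedom, Benjamini-Hochberg adjustment over 30660 genes, called under 0.05). Each standard error is the size of the log2 fold change divided by the root of its F value. Ratios of counts, with 3 counts added, were compared by exact permutation with SciPy 1.17.1. Alternatives were RLE scaling, 2 other filters, DESeq2 1.42.0, limma 3.58.1 with voom or on log2(FPKM + 1) and log2(FPKM + 0.1), halved counts, 2 genotypes in the fit, and fits without libraries. All 9 members were named, with up to 3 genes of smallest p per list and the 10 genes of most similar pattern with log2 CPM averaging 0 or more, leaving out predicted genes and antigen receptor segments. Values of Gm29439, Glycam1, Cd3e, Ighm, Cxcl13 and Ccl21a were added after they were seen, and C3 and S1pr1 as a check of the genotypes. An annotation of the older build GRCm38 served only to find overlapping genes and promoters. A few genes that the rule names are not reported here. Scripts were tested on simulated data.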

Additional observations from a re-analysis of the deposited data

Results flagged for a closer look

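In 4 of 27 sets of 4 libraries (9 genes in 3 genotypes), 1 library stood far from the others of its genotype by Dixon's test at the 95% level. Chance gives about 1 in 20 for values of normal spread, while the test was run on CPM without a log scale. The 9 genes vary together over the libraries, so the 27 sets are not independent and their count is not a test. C3_KO replicate 1 was the highest of its genotype for Cd79a at 3.01 CPM, for Ms4a1 at 0.835 CPM and for Cr2 at 1.64 CPM. WT replicate 3 was the highest of its genotype for Ms4a1 at 0.605 CPM. S1pr1_KO replicates 1 and 2 were high together, which a test for 1 library apart cannot mark.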

How the results depend on the processing

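No paired analysis was possible because the labels give no shared replicate numbers. With RLE scaling, without a filter, with halved counts, on either FPKM scale, with 2 genotypes in the fit and without the 3 libraries that stood apart in milk or saliva genes, 0 of the 9 B lineage genes were called in any comparison. With CPM above 1 in 4 libraries, 4 of the 9, Cd79a, Pax5, Cd22 and Jchain, were tested and 0 called. In S1pr1_KO against WT, DESeq2 called 7 of them and limma-voom 2, and in S1pr1_KO against C3_KO DESeq2 called 3. Leaving out 1 library at a time gave 0 to 4 members called in S1pr1_KO against WT. All genes called in S1pr1_KO against WT were 10 without a filter, 23 with the CPM filter, 955 with DESeq2, 7828 with limma-voom, 33 on log2(FPKM + 1), 43 on log2(FPKM + 0.1), 68 with 2 genotypes and 0 to 1330 leaving out 1 library, the highest without S1pr1_KO replicate 3. In C3_KO against WT they were 82 with DESeq2, 5 with limma-voom, 1 on log2(FPKM + 1) and 0 to 8 leaving out 1 library. In S1pr1_KO against C3_KO they were 114 with DESeq2 and 0 to 3 leaving out 1 library. The cause was not tested.

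In S1pr1_KO against WT, the 8 genes other than Jchain kept a positive log2 fold change in all alternatives that tested them. That of Jchain was -6.08e-05 on log2(FPKM + 1), -0.38 on log2(FPKM + 0.1), -1.08 without the 3 libraries that stood apart in milk or saliva genes and -1.03 to 1.10 leaving out 1 library. In S1pr1_KO against C3_KO it was -0.52 without those 3 libraries and -0.10 to 2.17 leaving out 1 library. In C3_KO against WT, leaving out 1 library gave -1.06 to 1.00 for Cd79a, -0.49 to 0.62 for Cd79b, -1.30 to 1.60 for Ms4a1, -0.46 to 1.19 for Pax5, -0.38 to 0.48 for Cd22 and -0.69 to 2.74 for Cr2. The ratio tests were also rerun leaving out 1 library, a choice made after seeing the data. The difference in log2 ratio then ran from -0.33 to 0.25 for Cr2 to Cd79a and from -0.21 to 0.47 for Fcer2a to Cd79a in S1pr1_KO against C3_KO. For Cd79b to Cd79a it ran from -0.33 to 0.15 in S1pr1_KO against WT, -0.12 to 0.41 in C3_KO against WT and -0.46 to 0.075 in S1pr1_KO against C3_KO. The Jchain to Cd79a difference kept its sign, from -3.97 to -2.55 in S1pr1_KO against WT. The lowest count behind a member was 8, for Ms4a1, so ratios of low genes are imprecise.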

Other observations

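The balance between B and T cell transcripts differed among tumours. The ratio of Cd79a to Cd3e, a chain of the T cell receptor complex, chosen after its values were seen, was 6.97, 9.64, 0.221 and 0.529 in S1pr1_KO replicates 1 to 4. In C3_KO replicates 1 to 4 it was 0.826, 0.484, 0.364 and 0.243, and in WT replicates 1 to 4 it was 0.377, 0.556, 1.57 and 0.154. S1pr1_KO replicates 1 and 2 were the 2 libraries above every WT library. Cd3e itself stood at 4.68, 1.65, 1.76 and 0.895 CPM in S1pr1_KO replicates 1 to 4 and at 0.745 to 2.15 CPM in WT libraries.

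The ratio of Ighd to Ighm, also chosen after its values were seen, was highest in S1pr1_KO replicates 1 and 2. It was 0.305, 0.237, 0.0208 and 0.00560 in S1pr1_KO replicates 1 to 4 and 0.00354 to 0.0476 in C3_KO, against 0.00258 to 0.0104 in WT libraries. Chemokines of lymphoid tissue were chosen in the same way. Cxcl13, which draws B cells into follicles, stood at 11.6, 3.72, 0.102 and 1.76 CPM in S1pr1_KO replicates 1 to 4 and at 0.139 to 0.648 CPM in C3_KO, against 0.356 to 2.88 CPM in WT libraries. Ccl21a, which guides lymphocytes through the receptor CCR7, stood at 42.3, 28.0, 0.910 and 2.90 CPM in S1pr1_KO replicates 1 to 4 and at 3.19 to 27.9 CPM in C3_KO, against 2.97 to 14.1 CPM in WT libraries. In C3_KO replicate 1, Ccl21a was at 27.9 CPM while Cxcl13 was at 0.623 CPM. These levels were not tested.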
